A study of Mus musculus with 72 samples.

Results

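The cerebellum of newborn Ts1Cje mice was set against that of disomic littermates on 6 of the 72 arrays of the series, chosen by their labels as P1 cerebellum, 3 Ts1Cje arrays against 3 disomic arrays. The whole series covered 3 regions of the brain, adding the hippocampus and the cerebral cortex, at 4 ages (P1, P15, P30 and P84) in both genotypes, with 3 mice per group. Each array held total RNA of 1 region of 1 mouse on an Affymetrix whole-genome mouse array of probe sets, and the values are log2 expression values that the authors made with gcRMA. The Ts1Cje mouse carries an extra, translocated copy of the part of mouse chromosome 16 (MMU16) from just after *Sod1* to *Zbtb21*, joined to MMU12, where 7 genes were lost from 1 copy; the disomic mice, called wildtype in the sample titles and C57BL/6 (disomic) in the strain label, carry 2 normal copies of both segments. All mice came from Ts1Cje fathers and C57BL/6 mothers, received no treatment and were labelled female, and their age is P1 in the labels and slightly later in the methods. Nothing in the sources used here says which mice shared a litter, so litter was not in the fit. The p-values rest on the spread within groups, pooled for each probe set over all 24 groups of the series. On an axis between P15 hippocampus and P15 cerebellum, the array labelled P15 cerebellum disomic replicate 3 lay at the hippocampal end (-0.02). The array labelled P15 hippocampus disomic replicate 3 lay at the cerebellar end (1.02). Both stayed in the pooled spread, which includes their distance from their groups.

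The newborn mouse cerebellum is still being built. Granule cell precursors divide in the external granule layer under the drive of sonic hedgehog from Purkinje cells, interneuron precursors leave the ventricular zone that *Ptf1a* marks, and the choroid plexus and meninges lie against the tissue and can come along in dissection. In a segmental trisomy every gene of the extra copy is expected to be transcribed from 3 templates in place of 2, a log2 difference of 0.58. Genes on other chromosomes keep their copy number.

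The 6 arrays were cerebellar by their expression, since on an axis from the mean P1 hippocampus (0) to the mean P1 cerebellum (1) they lay between 0.93 and 1.02, and between 0.94 and 1.04 on the axis from the cerebral cortex. The granule cell marker *Zic1* lay between 12.57 and 12.84 (log2) on all 6. Disomic replicate 3 stood apart. Its lower quartile, median and upper quartile were 2.66, 3.37 and 4.97, against 2.31 to 2.39, 3.25 to 3.29 and 5.82 to 5.93 on the other 5 arrays, and its correlations with them were 0.934 to 0.938, where the other 5 correlated among themselves at 0.977 to 0.991. The gap depended on the level: relative to the mean of disomic replicates 1 and 2 the median probe set of disomic replicate 3 was 0.41 higher at levels under 3, but lower by 1.06 at levels of 5 to 7 and lower by 0.14 at levels above 11 (log2 differences of -1.06 and -0.14). Ts1Cje replicate 3 differed in another way. *Xist*, the RNA of the inactive X chromosome, had values of 2.12, 1.88 and 11.26 in Ts1Cje mice and 2.12, 1.95 and 2.25 in disomic mice, and the Y-linked *Eif2s3y* had 9.26, 9.34 and 2.17 in Ts1Cje mice and 8.93, 9.41 and 9.01 in disomic mice. On 5 of the 6 arrays both genes thus went against the female label, and Ts1Cje replicate 3 alone had the pattern of a female. Choroid plexus RNA was also uneven, with *Ttr*, the thyroid hormone carrier that this tissue makes, at 12.64, 6.91 and 13.78 in Ts1Cje mice and 9.54, 11.81 and 10.66 in disomic mice. The results below are given with all 6 arrays and without disomic replicate 3.

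A probe set counted as called where its moderated t in limma was 4 or more in size and its p, adjusted by Benjamini-Hochberg across the 45101 probe sets, did not exceed 0.05, the spread of each probe set being taken from all 24 groups together. By this rule 223 probe sets (0.494% of those tested) differed between Ts1Cje and disomic P1 cerebella, 183 of them higher (0.406%) and 40 lower (0.0887%) in Ts1Cje mice. Of the 183 higher probe sets 31 belonged to 26 triplicated genes, 1 to a monosomic gene and 151 lay outside both segments, while all 40 lower ones lay outside. Without disomic replicate 3 the count fell to 22 (0.0488%), 14 higher (0.031%) and 8 lower (0.0177%), and 13 probe sets passed in both settings, all of them higher in Ts1Cje mice: 5 triplicated, *Dnah11* of the monosomic segment and 7 outside. Disomic replicate 3 was the lowest of the 6 arrays in 158 of the 183 higher calls, where it was so in 38.0% of all probe sets, and the highest in 37 of the 40 lower calls, against 35.8% of all probe sets. The groups did not overlap in 143 of the higher and 37 of the lower calls, where 4.93% of all probe sets were separated upwards and 3.67% downwards. Without disomic replicate 3 the 151 higher calls outside both segments kept a positive difference, at a median of 0.68 in place of 1.05. The 40 lower calls kept a negative one, at -0.38 in place of -0.77. These probe sets were chosen on differences that include the other arrays, so a kept sign was largely fixed by that choice. The spread that decides these calls came largely from the other 22 groups: in a fit of the 24 cerebellum arrays alone 9 probe sets were called, and in a fit of the 6 arrays alone 1 was (*Dnah11*). An unadjusted p under 0.05 was reached by 1107 probe sets (2.45%) in the fit of the 6 arrays, which is under the 5% that such a threshold passes where nothing differs, and by 7835 (17.4%) in the fit of all 72.

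**Figure D1:**
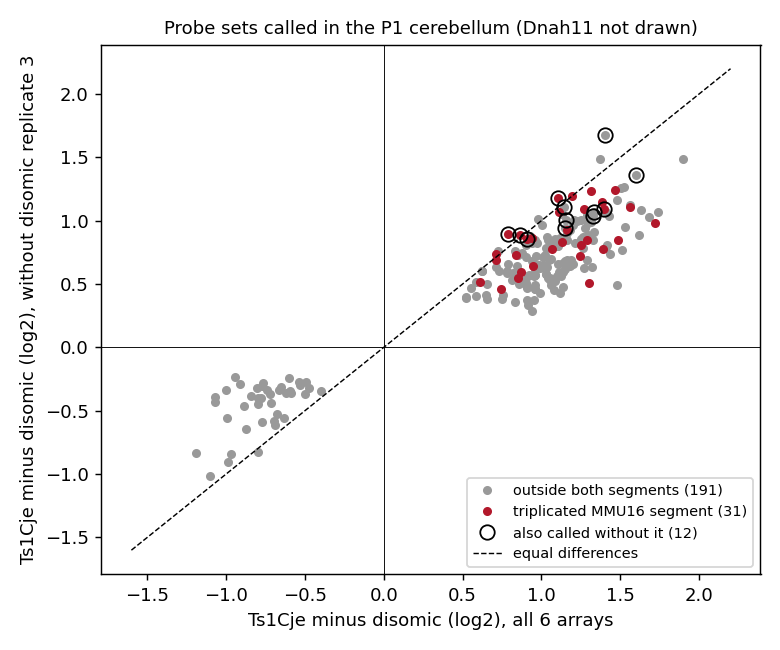
Each point is 1 of the probe sets called with all 6 arrays (*Dnah11*, far outside the axes, is not drawn). The x axis gives the log2 difference, Ts1Cje minus disomic, over all 6 arrays and the y axis the same without disomic replicate 3; red points are the 31 triplicated probe sets, grey points the 151 higher and 40 lower ones outside both segments, and rings mark the 12 drawn that were called in both settings. Every point keeps its sign and most lie nearer to 0 on the y axis than on the dashed line of equal differences, the median of the higher calls outside both segments being 0.68 on the y axis and 1.05 on the x axis. The probe sets were chosen on the x axis, which includes the arrays of the y axis, so a kept sign was largely fixed by that choice.

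The monosomic segment of MMU12 gave the largest difference of the comparison. *Dnah11*, a heavy chain of the dynein motor of cilia and one of the 7 genes of the segment, had values of 8.83, 8.95 and 8.39 in Ts1Cje mice and 2.94, 3.24 and 3.17 in disomic mice. All 3 Ts1Cje values lay above 8 and all 3 disomic values below the medians of their own arrays, where a level was not shown to be above background. The log2 difference as fitted was 5.60 (SE 0.23, limma adjusted p = 7.73e-25) and 5.63 without disomic replicate 3 (adjusted p = 3.48e-22), and it was called under every alternative tried. With each disomic value raised to the median of its array it was at least 5.41, or at least 42.5-fold higher. Taken in the same way, *Dnah11* was higher by at least 5.37 in the P1 cerebral cortex, 5.78 in the P1 hippocampus and 6.34 in the P15 cerebellum. Of the arrays labelled P15 cerebellum, disomic replicate 3 lay at the hippocampal end of the cerebellum to hippocampus axis (-0.02). In the P30 and P84 cerebellum, where the disomic values lay above their array medians, the differences were 5.27 and 5.26.

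The promoter of *Dnah11* is shown because no other called gene differed as much; it lies at chr12:118198994-118199293 on the minus strand (RefSeq, GRCm38.p6) and holds 7 CpG dinucleotides but, on either strand, none of the 3 words searched for (the CCAAT box, the core CCGGAAG of ETS sites and the TATA box TATAAA), so nothing is in capitals.
Dnah11: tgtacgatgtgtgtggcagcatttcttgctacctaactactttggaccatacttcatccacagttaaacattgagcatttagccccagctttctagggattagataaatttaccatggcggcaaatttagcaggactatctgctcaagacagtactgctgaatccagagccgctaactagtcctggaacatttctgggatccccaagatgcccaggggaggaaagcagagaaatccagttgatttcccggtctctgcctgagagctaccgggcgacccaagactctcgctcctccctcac

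The other 5 measured genes of the monosomic segment were not called. *Itgb8*, the integrin subunit that activates latent TGF-beta, had 8.61, 8.50 and 8.47 in Ts1Cje mice and 8.89, 9.34 and 9.09 in disomic mice, so that every Ts1Cje value lay below every disomic value. That separation was seen in 3.01% of all genes, and the difference of -0.58 (SE 0.18) missed the criteria with all arrays (adjusted p = 0.0917) and without disomic replicate 3 (-0.58, adjusted p = 0.574). In the other 5 comparisons named for *Dnah11* the *Itgb8* difference ran from -1.41 in the P84 cerebellum to -0.93 in the P1 cerebral cortex. The transcription factor gene *Sp4* differed by -0.14 (adjusted p = 0.901), *Tmem196* by -0.39 (0.635), *Macc1* by -0.18 (0.690) and *Sp8* by -0.03 (0.953). *Abcb5* is not analysed here.

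Among the 77 triplicated genes measured, at 188 probe sets, 38 had a mean of at least 5 over all arrays, and all 38 were above 0 in Ts1Cje mice with and without disomic replicate 3. Their differences ran from 0.21 to 1.56, and from 0.19 to 1.20 without that array. In 28 of the 38 the lowest Ts1Cje array was above the highest disomic one, against 9.19% of the other genes at that level, and again in 28 when disomic replicate 3 was left out, against 11.4%. The bar of 0.58 was passed by 29 of the 38 with all arrays, where 13.2% of the other genes passed it too, and by 23 of the 38 without disomic replicate 3, where 2.93% of the others did. With all arrays the 7719 other genes were themselves shifted, at a median of 0.20, and this shift was 0.0088 without disomic replicate 3 and 0.027 after quantile normalization, where the triplicated median was 0.72 in place of 0.88. The 39 triplicated genes under a mean of 5 had a median of -0.03, 17 of them above 0 (30 without disomic replicate 3).

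**Figure D2:**
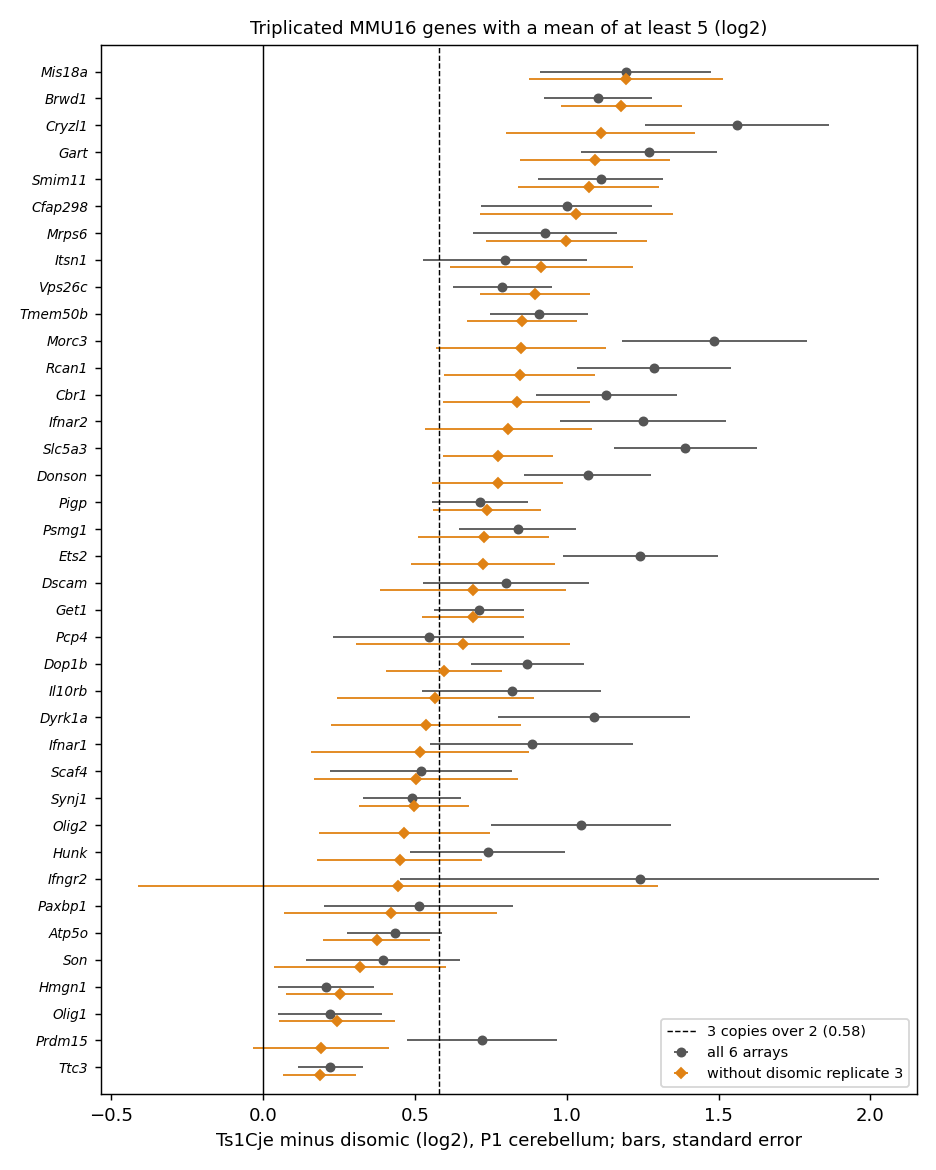
The 38 triplicated genes whose mean reached 5 (log2) are listed down the page, at the probe set with the highest mean. Points give the log2 difference, Ts1Cje minus disomic, and bars its standard error from limma, in grey for all 6 arrays (n = 3 mice each) and in orange without disomic replicate 3; the dashed line marks 3 copies over 2 (0.58). All points lie right of 0, and the grey points run from 0.21 (*Hmgn1*) to 1.56 (*Cryzl1*).

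At any of their probe sets 26 triplicated genes were called, all higher, where 0.846% of all genes were called higher at any probe set, with folds of 1.53 to 3.29, and 5 of them were also called without disomic replicate 3. None was called lower, 3 of the 77 genes having an unadjusted p under 0.05 in that direction at their main probe set, against 8.68% of all genes. *Brwd1*, which has bromodomains that bind acetylated histones, was 1 of these 5. At the probe set with the highest mean, it had 8.93, 8.65 and 8.88 in Ts1Cje mice and 7.43, 7.85 and 7.87 in disomic mice. The groups did not overlap, and disomic replicate 3 was the highest of its group. The difference was 1.10 (SE 0.18, adjusted p = 0.000481) and 1.18 without disomic replicate 3 (adjusted p = 0.00172). A second *Brwd1* probe set was called only with all arrays (1.31, adjusted p = 0.0325; 0.51, adjusted p = 0.961 without disomic replicate 3), and its other 3 differed by 0.11 to 0.59 and were not called.

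*Vps26c*, *Tmem50b*, *Mrps6* and *B3galt5* were the other 4 genes that passed both ways. *Vps26c*, a subunit of the retriever complex that recycles cargo from endosomes, had 8.29, 8.34 and 8.41 in Ts1Cje mice and 7.24, 7.66 and 7.77 in disomic mice, without overlap (0.79, SE 0.16, adjusted p = 0.00958; 0.90, adjusted p = 0.0227 without disomic replicate 3). *Tmem50b*, a small transmembrane protein, had 9.56, 9.67 and 9.80 in Ts1Cje mice and 8.52, 9.12 and 8.66 in disomic mice, again without overlap (0.91, SE 0.16, adjusted p = 0.00229; 0.85, adjusted p = 0.0425). *Mrps6*, a protein of the small mitochondrial ribosomal subunit, had 9.40, 8.96 and 9.83 in Ts1Cje mice and 8.31, 8.70 and 8.59 in disomic mice at the called probe set. Its difference there was 0.86 (SE 0.16, adjusted p = 0.0033; 0.89, adjusted p = 0.0227 without disomic replicate 3), while its other probe set, with a difference of 0.93 and an adjusted p of 0.0436, fell short of the bar on t. Without Ts1Cje replicate 3 *Vps26c* and *Mrps6* missed the criteria, with adjusted p of 0.0648 and 0.0867 in limma.

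*B3galt5*, a galactosyltransferase that builds type 1 glycan chains, differed between regions when all arrays were used. Its values at the probe set with the highest mean were 5.38, 5.29 and 4.98 in Ts1Cje mice and 4.17, 4.08 and 3.22 in disomic mice, so that every Ts1Cje value lay above every disomic value. The value on disomic replicate 3 lay below its array median of 3.37, where a level above background was not shown. The difference of 1.40 (SE 0.21, adjusted p = 0.000165) was 1.10 without disomic replicate 3 (adjusted p = 0.0227). In the cerebellum of older mice it was 1.15 at P15, 0.97 at P30 and 0.89 at P84, whereas it was 0.01 in the P1 cerebral cortex and -0.01 in the P1 hippocampus. The levels of *B3galt5* in the P1 cerebral cortex and hippocampus are not given here, so a level above background is not shown there. The P15 value includes a disomic array that lay at the hippocampal end of the cerebellum to hippocampus axis. The test of the difference between the P1 cerebellum and both other P1 regions gave 1.40 (adjusted p = 0.0121) and, without disomic replicate 3, 1.10 (adjusted p = 0.318), which misses the criteria. The other 3 probe sets of *B3galt5* were not called.

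The remaining 21 called triplicated genes met the criteria only with all arrays. Disomic replicate 3 was the lowest of the 6 in 23 of the 31 triplicated probe sets called. *Chaf1b*, a subunit of the factor that assembles nucleosomes behind the replication fork, had 5.13, 5.62 and 4.89 in Ts1Cje mice and 4.69, 4.45 and 3.66 in disomic mice (0.95, adjusted p = 0.0185; 0.65, adjusted p = 0.574 without disomic replicate 3). *Donson*, which acts at the replication fork, had 7.05, 7.19 and 7.19 in Ts1Cje mice and 6.06, 6.68 and 5.48 in disomic mice (1.07, adjusted p = 0.00565; 0.77, adjusted p = 0.313). *Mis18a*, which helps load the centromeric histone, had 7.74, 7.94 and 8.02 in Ts1Cje mice and 6.22, 7.11 and 6.42 in disomic mice at the probe set with the higher t. It was 1.32 higher there (adjusted p = 0.00511) and 1.24 higher without disomic replicate 3, where it missed the criteria (adjusted p = 0.097). In each of these 3 genes no Ts1Cje value fell to the level of a disomic one.

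The promoters of *Chaf1b* and *Donson* are shown because both genes are known from the replication fork and were called with all arrays; capitals mark the word CCGGAAG, the core bound by ETS factors, to which the product of the triplicated *Ets2* belongs. The word was searched for on both strands, did not overlap the other words and was found in 8.86% of 32851 promoters of the same length, and a match describes these letters only. *Chaf1b* lies at chr16:93883651-93883950 on the plus strand and *Donson* at chr16:91688679-91688978 on the minus strand (RefSeq, GRCm38.p6).
Chaf1b: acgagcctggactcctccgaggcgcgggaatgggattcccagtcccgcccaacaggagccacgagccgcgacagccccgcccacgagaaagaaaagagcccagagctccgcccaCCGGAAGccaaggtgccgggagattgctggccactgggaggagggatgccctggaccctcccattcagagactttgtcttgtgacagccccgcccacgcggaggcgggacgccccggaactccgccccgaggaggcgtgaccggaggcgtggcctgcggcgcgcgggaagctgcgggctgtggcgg
Donson: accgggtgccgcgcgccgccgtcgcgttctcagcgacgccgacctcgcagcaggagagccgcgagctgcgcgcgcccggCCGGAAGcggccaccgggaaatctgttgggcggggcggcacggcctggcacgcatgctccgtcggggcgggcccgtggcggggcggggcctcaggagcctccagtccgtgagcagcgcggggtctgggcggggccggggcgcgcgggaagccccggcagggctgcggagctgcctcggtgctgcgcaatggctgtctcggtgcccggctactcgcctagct

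*Ets2*, *Rcan1*, *Synj1*, *Dscam* and *Morc3* were also among the genes called only with all arrays. *Ets2*, an ETS transcription factor, had 7.47, 7.18 and 7.11 in Ts1Cje mice and 6.60, 6.46 and 4.98 in disomic mice (1.24, adjusted p = 0.00883; 0.72, adjusted p = 0.53 without disomic replicate 3). *Rcan1*, an inhibitor of the phosphatase calcineurin, had 7.91, 8.15 and 8.26 in Ts1Cje mice and 6.97, 7.56 and 5.94 in disomic mice (1.29, adjusted p = 0.00609; 0.85, adjusted p = 0.4). In both genes the groups did not overlap and disomic replicate 3 was the lowest array. *Synj1*, the phosphoinositide phosphatase of synaptic vesicle recycling, was called at 2 of its 4 probe sets (1.38 at the one with the higher t, adjusted p = 0.00609; 1.15, adjusted p = 0.256 without disomic replicate 3) but not at the one with the highest mean (0.49, adjusted p = 0.11). *Dscam*, an adhesion receptor of developing neurons, was called at 1 of its 5 probe sets (0.94, adjusted p = 0.0159; 0.87, adjusted p = 0.264). *Morc3*, an ATPase of nuclear bodies, was called at 2 of its 3 probe sets. At the one with the larger t it had 8.89, 9.0 and 8.81 in Ts1Cje mice and 8.09, 8.01 and 6.14 in disomic mice (1.49, adjusted p = 0.00845; 0.85, adjusted p = 0.532 without disomic replicate 3). At the other it had 7.73, 7.89 and 7.57 in Ts1Cje mice and 6.41, 7.10 and 4.53 in disomic mice. That was the largest called fold of the segment, 3.29 (adjusted p = 0.0166), which was 1.97 without disomic replicate 3 (adjusted p = 0.708).

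*Gart*, an enzyme of purine synthesis, had 7.33, 7.23 and 7.39 in Ts1Cje mice and 6.07, 6.37 and 5.69 in disomic mice (1.27, adjusted p = 0.002; 1.09, adjusted p = 0.0854 without disomic replicate 3). *Slc5a3*, the myo-inositol transporter, had 8.04, 8.35 and 7.91 in Ts1Cje mice and 7.11, 7.54 and 5.48 in disomic mice (1.39, adjusted p = 0.00103; 0.77, adjusted p = 0.113). *Atp5o*, a subunit of the mitochondrial ATP synthase, had the smallest called difference of the segment, 0.61 at 1 of its 2 probe sets (adjusted p = 0.00713; 0.52, adjusted p = 0.252). *Get1*, which inserts tail-anchored proteins into the endoplasmic reticulum, had 8.45, 8.34 and 8.23 in Ts1Cje mice and 7.66, 7.65 and 7.59 in disomic mice. Its disomic values lay close together, disomic replicate 3 included, and the difference of 0.71 (adjusted p = 0.0106) was 0.69 without that array (adjusted p = 0.152). *Cbr1*, *Cryzl1*, *Pigp*, *Psmg1*, *Smim11*, *Cfap298*, *Dop1b* and *Setd4* were also called with all arrays, by 0.71 (*Pigp*) to 1.56 (*Cryzl1*).

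The segment holds 4 receptor genes of the interferon and interleukin 10 families. *Ifnar2*, a chain of the type I interferon receptor, had 6.41, 5.77 and 6.27 in Ts1Cje mice and 5.21, 5.47 and 4.01 in disomic mice, and was called with all arrays (1.25, adjusted p = 0.0146; 0.81, adjusted p = 0.574 without disomic replicate 3). Its partner chain *Ifnar1* had 6.25, 6.84 and 6.38 in Ts1Cje mice and 6.37, 5.57 and 4.87 in disomic mice, which overlap (0.88, adjusted p = 0.161). *Ifngr2* of the interferon gamma receptor (1.24, SE 0.79, adjusted p = 0.422) and *Il10rb* of the interleukin 10 receptor (0.82, adjusted p = 0.144) were not called either. The paper's own analysis lists *Ifngr2* as higher in the P1 cerebellum of Ts1Cje mice. Its RT-qPCR on the same RNA was also higher, without a mark of significance at that age. Of the 16 measured genes of a list of interferon receptors and Jak-Stat genes, which includes these 4, *Ifnar2* was the only one called, where 0.605% of all genes were called, at a list median of 0.18 (0.07 without disomic replicate 3). The 27 measured interferon-stimulated genes, the targets of that pathway, had none called in limma. Only 4 of the 27 had a mean of at least 5. The list mean was 3.32 to 3.63 on the 6 arrays, near the array medians of 3.25 to 3.37, so missing calls there say little. Of these 27, 0 were higher and 3 lower at an unadjusted p under 0.05, which 10.6% of all genes passed upwards and 8.68% downwards, and they had a median of -0.16 (-0.14 without disomic replicate 3), against 0.05 (0.02) for all 18194 genes. Their members with the highest means, *B2m*, *H2-D1* and *Ifi27*, differed by 0.10, 0.11 and -0.12.

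Several triplicated genes known for roles in brain development, also named after their values were seen, were not called. *Dyrk1a*, a kinase of neurogenesis, had 9.91, 9.23 and 9.14 in Ts1Cje mice and 9.06, 8.72 and 7.23 in disomic mice, which nearly touch (1.09, adjusted p = 0.0772; 0.54 without disomic replicate 3). *Olig2*, a transcription factor of the oligodendrocyte lineage, had 6.95, 7.27 and 7.37 in Ts1Cje mice and 6.47, 6.98 and 4.99 in disomic mice, which overlap (1.05, adjusted p = 0.0705; 0.47). Its neighbour *Olig1* differed by 0.22 (adjusted p = 0.529) and *Pcp4*, a calmodulin-binding protein of Purkinje cells, by 0.55 (adjusted p = 0.366). The smallest differences at this level were those of *Hmgn1*, a nucleosome-binding protein (0.21, SE 0.16), and *Ttc3*, a ubiquitin ligase (0.22, SE 0.11). At the edge of the segment, *Sod1*, which defines the start of the rule and lies outside it, was called at 1 of its 5 probe sets (1.51, adjusted p = 0.00557; 1.26, adjusted p = 0.218 without disomic replicate 3), while its other 4 probe sets differed by 0.02 to 0.46 and were not called. The paper lists *Sod1* as trisomic with 1 copy truncated and not functional, and its call counts here among those outside both segments. It is named here after its values were seen.

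A pair of triplicated genes, named after their values were seen, were high on Ts1Cje replicate 3 alone. *Clic6*, a chloride channel protein, had 3.28, 3.17 and 5.28 in Ts1Cje mice and 2.81, 3.08 and 3.24 in disomic mice, and *Kcne2*, a potassium channel subunit, had 3.56, 2.60 and 6.38 in Ts1Cje mice and 2.79, 2.98 and 3.44 in disomic mice. Both are known from the choroid plexus, and *Folr1*, *Kcnj13* and *Calml4*, listed as markers of that tissue, were at 5.47, 4.40 and 5.70 on Ts1Cje replicate 3 and at 2.47 to 3.80 on the other 5 arrays. Without both replicates 3 the differences of *Clic6* and *Kcne2* were 0.28 and 0.20, against 0.87 and 1.11 with all arrays, and neither was called (adjusted p = 0.23 and 0.256). The part of choroid plexus tissue in these values was not tested. In bulk tissue a larger share of a cell type and more RNA per cell cannot be told apart.

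Outside both segments, 7 genes were called higher in Ts1Cje mice with and without disomic replicate 3. *A830029E22Rik*, which the gene table lists under a clone name, had 4.70, 4.55 and 4.88 in Ts1Cje mice and 2.80, 3.90 and 2.64 in disomic mice. The disomic values of replicates 1 and 3 lay below the medians of their arrays, so that a level above background was not shown there, and the groups did not overlap, as in 4.93% of all probe sets. The difference was 1.60 (SE 0.19, adjusted p = 5.37e-07) and 1.36 without disomic replicate 3 (adjusted p = 0.000119), and it was at least 1.19 with those disomic values raised to their array medians. *Kcnab1*, an auxiliary subunit of voltage-gated potassium channels, had 5.28, 5.26 and 5.09 in Ts1Cje mice and 3.70, 4.58 and 3.35 in disomic mice (1.33, SE 0.19, adjusted p = 5.32e-05; 1.07, adjusted p = 0.0115). At the called probe set the *Kcnab1* value on disomic replicate 3 lay just below the array median of 3.37. The second *Kcnab1* probe set differed by -0.02 (SE 0.51). *Asb15*, a substrate adaptor of ubiquitin ligases, had 4.99, 5.44 and 5.66 in Ts1Cje mice and 3.98, 4.67 and 3.45 in disomic mice (1.33, SE 0.17, adjusted p = 3.31e-06; 1.03, adjusted p = 0.000863), while its other probe set differed by -0.43 (adjusted p = 0.203).

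*Fgf3*, a growth factor of the embryonic hindbrain and inner ear, had 6.12, 5.12 and 6.30 in Ts1Cje mice and 5.16, 4.65 and 4.28 in disomic mice. Ts1Cje replicate 2 lay just under disomic replicate 1, so the groups overlap (1.15, SE 0.17, adjusted p = 5.32e-05; 0.94, adjusted p = 0.0115 without disomic replicate 3), and its other 2 probe sets differed by -0.29 and -0.25 and were not called. *Lin28b*, an RNA-binding protein that blocks let-7 maturation, had 3.64, 4.58 and 5.26 in Ts1Cje mice and 3.66, 3.11 and 3.28 in disomic mice, overlapping by Ts1Cje replicate 1. The difference of 1.14 (SE 0.20, adjusted p = 0.00171) was 1.11 without disomic replicate 3 (adjusted p = 0.0227), and without Ts1Cje replicate 3, the highest array, the adjusted p was 0.0762. The *Lin28b* values on disomic replicates 2 and 3 lay below their array medians (3.27 and 3.37), where a level above background was not shown. *Hmgb2*, a chromatin protein of dividing cells, had 4.29, 4.46 and 4.57 in Ts1Cje mice and 3.29, 3.58 and 2.99 in disomic mice at the called probe set (1.16, SE 0.15, adjusted p = 3.31e-06; 1.01, adjusted p = 0.000646 without disomic replicate 3). These values did not overlap, but the other 2 *Hmgb2* probe sets differed by 0.37 (adjusted p = 0.564) and 0.05 (adjusted p = 0.961), so the call rests on 1 of 3 probe sets. At the called probe set the *Hmgb2* value on disomic replicate 3 lay below the array median of 3.37. *Slc6a2*, the noradrenaline transporter, completed the 7, with 4.11, 2.98 and 4.52 in Ts1Cje mice and 1.94, 2.45 and 3.00 in disomic mice at the called probe set, where Ts1Cje replicate 2 lay just below disomic replicate 3. The difference was 1.40 (SE 0.19, adjusted p = 1.48e-05) and 1.67 without disomic replicate 3 (adjusted p = 7.76e-07). All 3 disomic values and Ts1Cje replicate 2 lay below their array medians, so that a level above background was not shown there, and with the disomic values raised to those medians the difference was at least 0.56. *Slc6a2* was not called at its other 3 probe sets, and the list of 14 noradrenergic and autonomic neuron genes had none called at the probe set with the highest mean, 3 higher and 1 lower at an unadjusted p under 0.05 (10.6% and 8.68% of all genes), and a median of 0.27 in both settings.

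The promoter of *Hmgb2*, at chr8:57511593-57511892 on the plus strand (RefSeq, GRCm38.p6), is shown because the gene was called in both settings; capitals mark the word CCAAT, searched for on both strands and without overlap with the other words. It occurs 4 times, where 37.4% of the 32851 promoters hold it at least once and 1.06% hold it 4 or more times.
Hmgb2: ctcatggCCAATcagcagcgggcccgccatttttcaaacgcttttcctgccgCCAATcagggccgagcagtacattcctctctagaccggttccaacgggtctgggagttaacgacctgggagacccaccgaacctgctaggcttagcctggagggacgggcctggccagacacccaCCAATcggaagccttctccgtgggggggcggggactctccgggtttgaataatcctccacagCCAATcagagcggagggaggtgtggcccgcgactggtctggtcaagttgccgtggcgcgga

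All but these 7 of the 151 higher calls outside both segments were lost without disomic replicate 3. Among those with the highest t were *Pkdcc*, a secreted kinase (1.10, adjusted p = 0.000789; 0.80, adjusted p = 0.0911 without disomic replicate 3), *Pura*, a nucleic acid binding protein of neurons (1.62, adjusted p = 0.00092; 0.89, adjusted p = 0.0854), and *Cdc73*, a subunit of the Paf1 transcription complex (1.42, adjusted p = 0.00171; 0.81, adjusted p = 0.173). *Pura* had 7.75, 8.33 and 7.92 in Ts1Cje mice and 6.88, 7.35 and 4.91 in disomic mice, and *Depdc1a* had 6.45, 6.76 and 5.96 in Ts1Cje mice and 4.29, 6.34 and 3.31 in disomic mice. In both, disomic replicate 3 was the lowest array, and *Depdc1a* also overlapped between groups. *Ptf1a*, the factor that specifies GABAergic neurons of the cerebellum, was the called member of a list of 9 GABAergic interneuron precursor genes. It had 6.28, 5.51 and 6.68 in Ts1Cje mice and 4.58, 6.13 and 4.58 in disomic mice, so disomic replicate 2 lay above Ts1Cje replicate 2, and the difference of 1.06 (SE 0.22, adjusted p = 0.0109) was 0.81 without disomic replicate 3 (adjusted p = 0.405). Of all genes 0.605% were called. In the list of 9, 5 genes were above 0 and 4 below (8 and 1 without disomic replicate 3). At an unadjusted p under 0.05 in limma 1 was higher and 1 lower, beside 10.6% and 8.68% of all genes. The list median was 0.21 (0.16 without disomic replicate 3).

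**Figure D3:**
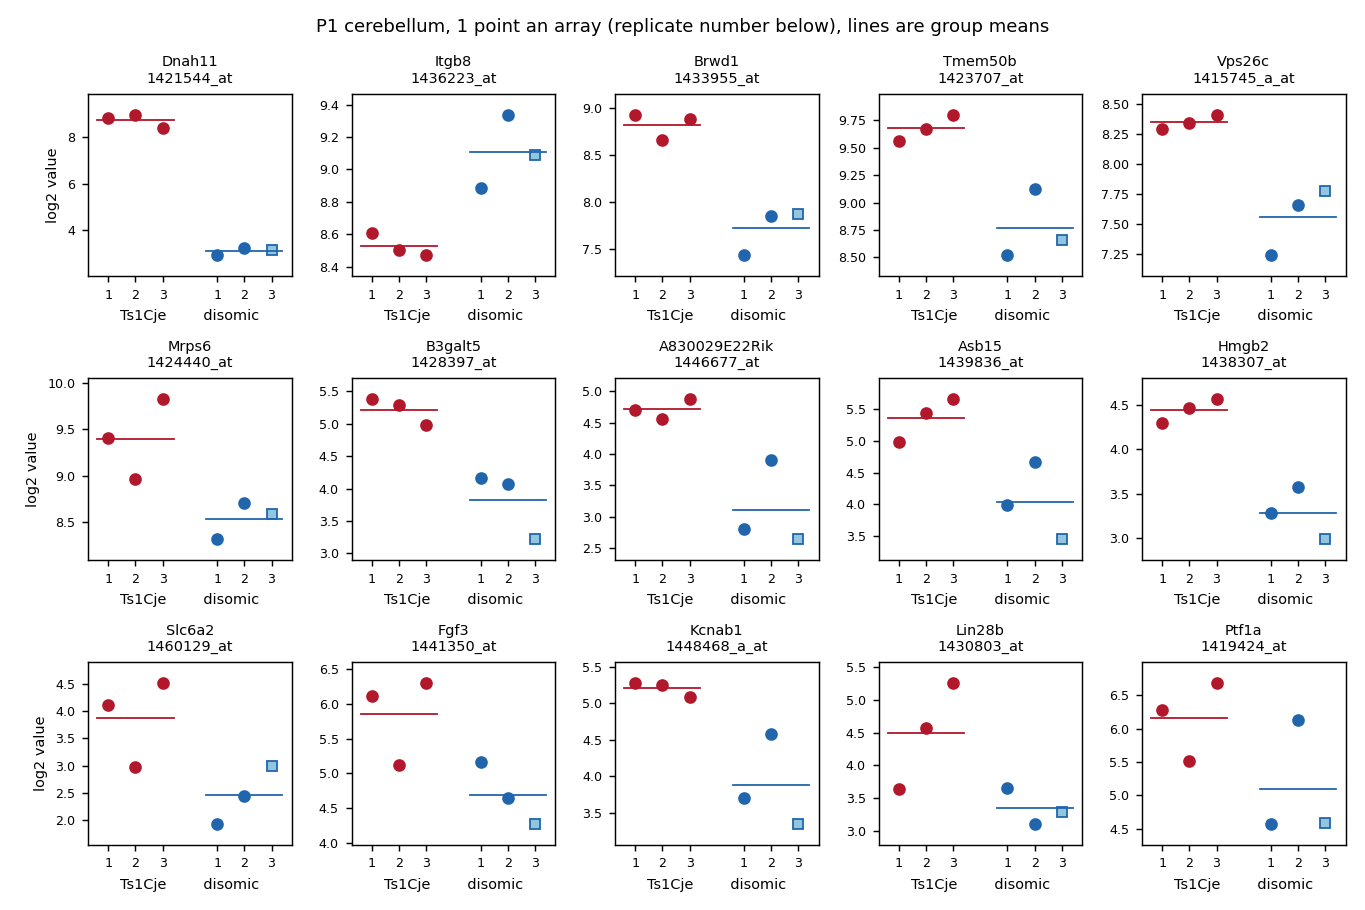
Each panel shows 1 probe set in the P1 cerebellum, with the 3 Ts1Cje arrays at the left in red and the 3 disomic arrays at the right in blue, by replicate number on the x axis and log2 value on the y axis, whose range differs between panels and does not start at 0. Lines are group means and the pale square is disomic replicate 3. *Dnah11* stands near 9 in Ts1Cje mice and near 3 in disomic mice, *Itgb8* is lower on all 3 Ts1Cje arrays, and in *Lin28b* and *Ptf1a* the groups overlap.

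Of the 40 lower calls 33 had a Ts1Cje mean below the lowest median of the 6 arrays (3.25), where no level above background was shown, and in 24 of these 33 the disomic mean lay below it as well. *Pax9*, a transcription factor whose Ts1Cje mean alone lay below it, had 2.79, 2.71 and 2.72 in Ts1Cje mice and 2.87, 3.39 and 5.16 in disomic mice (-1.07, adjusted p = 0.0224; -0.39, adjusted p = 0.888 without disomic replicate 3). Lower calls at higher levels included *Kif23*, a kinesin of cytokinesis, with 5.31, 6.33 and 4.83 in Ts1Cje mice and 6.06, 6.58 and 7.39 in disomic mice, which overlap (-1.19, adjusted p = 0.0119; -0.83, adjusted p = 0.467). *Sav1*, a scaffold of the Hippo pathway, had 5.44, 4.85 and 4.67 in Ts1Cje mice and 5.66, 6.00 and 6.20 in disomic mice, without overlap (-0.97, adjusted p = 0.00845; -0.84, adjusted p = 0.256). *Josd2*, a deubiquitinase, had 3.89, 3.30 and 3.12 in Ts1Cje mice and 4.33, 4.57 and 4.71 in disomic mice, and its difference of -1.10 (adjusted p = 0.00609) hardly moved without disomic replicate 3 (-1.01, adjusted p = 0.146). *Fbn2*, an elastic fibre protein, had 4.20, 3.91 and 4.28 in Ts1Cje mice and 5.36, 4.72 and 5.28 in disomic mice (-0.99, adjusted p = 0.0166; -0.91, adjusted p = 0.271).

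Leaving out disomic replicate 3 also added 9 calls, 8 of them lower in Ts1Cje mice, whose named genes are given here after their values were seen. *Adamts12*, a secreted metalloprotease, had 3.31, 3.00 and 2.71 in Ts1Cje mice and 4.09, 4.16 and 2.94 in disomic mice, where disomic replicate 3 lay within the Ts1Cje range (-1.12, adjusted p = 0.000119 without it; -0.72, adjusted p = 0.0423 with it, short of the bar on t). Its values on Ts1Cje replicates 2 and 3 and on disomic replicate 3 lay below their array medians, where a level above background was not shown. *Rmst*, a long noncoding RNA of neural progenitors, had 4.29, 5.74 and 4.43 in Ts1Cje mice and 5.67, 6.21 and 4.23 in disomic mice (-1.12, adjusted p = 0.0211 without disomic replicate 3; -0.55 with it). The histone chaperone *Nasp* (-1.02), the spindle protein *Tacc3* (-0.64), the neural tube factor *Pax3* (-0.77) and *Zbed3* (-0.93) were the other named genes lower in this setting, and *Asb4* was higher (1.16).

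Lists of cell type and process genes showed few calls, beside 97 genes called higher and 13 lower of 18194 (0.533% and 0.0715%). The pooled spread includes both P15 arrays that lay at the end of the other region. It can be wider for genes that differ between cerebellum and hippocampus, so missing calls there say less. An unadjusted p under 0.05 was reached upwards by 10.6% and downwards by 8.68% of all genes, against which the counts of list members at that threshold stand. Of 44 DNA replication genes none was called in limma (4 higher and 1 lower at an unadjusted p under 0.05), the median was 0.08 (-0.03 without disomic replicate 3), and *Pcna*, *Mcm7* and *Fen1* differed by -0.05, -0.25 and -0.45. Of 48 mitosis genes *Kif23* alone was called at its main probe set, with a median of 0.01 (-0.13). The mean of that list was 6.50, 6.56 and 5.62 in Ts1Cje mice and 5.98, 6.81 and 5.91 in disomic mice, lowest on Ts1Cje replicate 3. *Mki67*, the proliferation marker, had 9.18, 9.51 and 7.41 in Ts1Cje mice and 8.80, 9.84 and 9.55 in disomic mice, also lowest on that array. The 15 hedgehog response genes had a median of 0.05 (-0.16), the 14 granule cell precursor genes 0.10 (-0.09) and the 18 immature granule neuron genes 0.01 (-0.13), and none of them was called, with 2 higher hedgehog genes and 2 lower precursor genes at an unadjusted p under 0.05. *Ptch1*, the hedgehog receptor and target, differed by 0.10 and *Ccnd1* by 0.05. The 17 Purkinje cell genes had a median of 0.11 (0.08), with none called and 1 higher at an unadjusted p under 0.05, and *Gad1*, *Calb1* and *Bcl11a* differed by 0.11, 0.10 and 0.13. The 16 oligodendrocyte genes had a median of 0.28 (0.21), with none called and 5 higher and 1 lower at an unadjusted p under 0.05, and *Mbp*, the myelin basic protein gene, had 5.56, 7.19 and 7.34 in Ts1Cje mice and 4.62, 6.91 and 3.83 in disomic mice.

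With all arrays, the list medians farthest below 0 were those of tissue at the surface and in vessels of the cerebellum. The 17 measured genes of meninges and mesenchyme had a median of -0.56, and of -0.82 without disomic replicate 3, when all 17 were below 0, against 14 of 17 with all arrays, and of -1.29 without both replicates 3. None was called in limma, and 2 were lower at an unadjusted p under 0.05, beside 8.68% of all genes. The mean of the list was 5.02, 3.95 and 5.72 in Ts1Cje mice and 5.65, 5.81 and 4.58 in disomic mice, so the groups overlapped and Ts1Cje replicate 2 was the lowest array. *Igf2*, a growth factor, had 9.81, 7.97 and 10.48 in Ts1Cje mice and 10.60, 10.30 and 9.42 in disomic mice, and *Col3a1*, a fibrillar collagen, had 9.48, 8.23 and 9.44 in Ts1Cje mice and 10.52, 10.02 and 9.65 in disomic mice. The 16 genes of endothelium and pericytes had a median of -0.33 (-0.48), 12 of them below 0 (14), none called in limma and 4 lower and 1 higher at an unadjusted p under 0.05 (8.68% and 10.6% of all genes), with *Rgs5*, *Slco1c1* and *Vtn* at -0.25, 0.06 and -0.36. The 13 choroid plexus genes had none called in limma, 2 higher at an unadjusted p under 0.05, and a median of 0.32 (0.33), which was -0.06 without both replicates 3. Ts1Cje replicate 2 was the lowest array for *Ttr*, *Igf2* and *Col3a1* alike. The part of these surface tissues in the genes called was not tested.

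**Figure D4:**
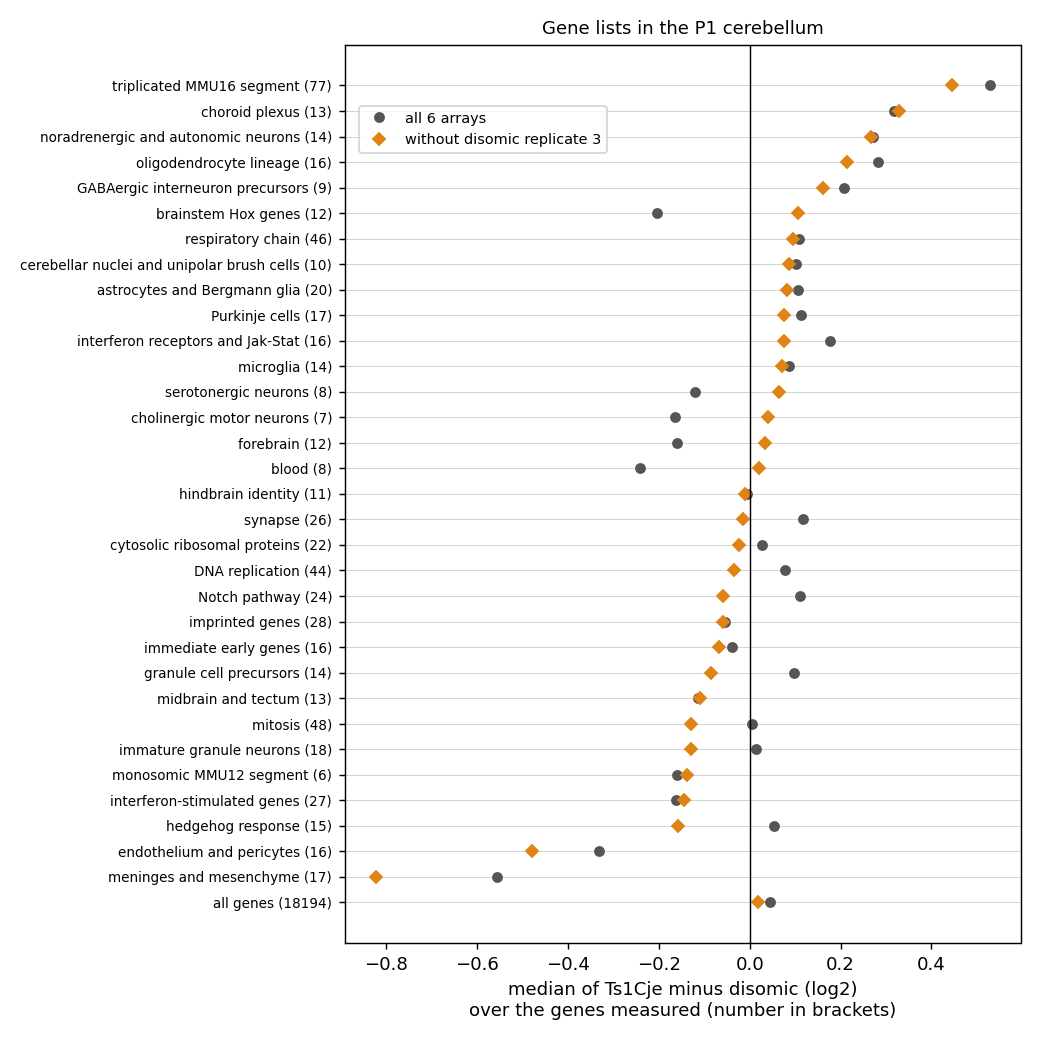
Each row is a gene list, with the number of its genes measured in brackets, and all genes at the bottom. Points give the median log2 difference, Ts1Cje minus disomic, over the list in the P1 cerebellum, in grey for all 6 arrays and in orange without disomic replicate 3. The triplicated segment stands highest (0.53 over all 77 genes), meninges and mesenchyme lowest (-0.56 and -0.82), and all genes near 0 (0.05 and 0.02).

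The effects outside both segments were then compared with those of other regions and ages in the same fit. None of the 151 higher and 40 lower probe sets called outside both segments was called in the P1 cerebral cortex, the P1 hippocampus, or the cerebellum at P15 or P30, and 1 was called at P84. Of all 45101 probe sets, only 5, 7, 15, 14 and 50 were called in these comparisons, in the same order. A lack of shared calls therefore says little. The higher calls outside both segments had medians of 0.10 in the P1 cerebral cortex, 0.0015 in the P1 hippocampus and 0.04, -0.01 and -0.03 in the P15, P30 and P84 cerebellum, against 1.05 in the P1 cerebellum that chose them. The 38 triplicated genes had medians of 0.66 in the P1 cerebral cortex, 0.64 in the P1 hippocampus and 0.76, 0.64 and 0.71 in the older cerebella. All P15 cerebellum values here include a disomic array that lay at the hippocampal end of the cerebellum to hippocampus axis. A test of the P1 cerebellum effect against the mean effect of both other P1 regions called 14 probe sets (0.031%), 13 of them higher (0.0288%), and 6 without disomic replicate 3 (0.0133%), with 5 in both. A test against the mean effect in the P15, P30 and P84 cerebellum called 24 (0.0532%), 22 of them higher (0.0488%) and none triplicated, and 5 without disomic replicate 3 (0.0111%), with 4 in both. All regions were taken from the same animals, and the tests share the 6 arrays of the P1 cerebellum, so they are not independent of each other or of the calls above. The fit held no term for the mouse, so the p-values between regions treat arrays of the same mouse as independent.

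*A830029E22Rik*, *Hmgb2* and *Slc6a2* passed both tests with and without disomic replicate 3. For *A830029E22Rik* the P1 cerebellum effect exceeded that of the other P1 regions by 1.67 (adjusted p = 4.64e-05) and that of the older cerebella by 1.72 (adjusted p = 8.69e-06), its own differences elsewhere lying between -0.18 and 0.01. For *Slc6a2* these values, which rest on disomic values not shown to be above background, were 1.60 (adjusted p = 0.000126) and 1.46 (adjusted p = 0.000306). For the single *Hmgb2* probe set they were 1.34 (adjusted p = 4.64e-05) and 1.12 (adjusted p = 0.000306), and it differed by -0.41 in the P1 hippocampus. *Fgf3* (1.39, adjusted p = 0.000126) and *Lin28b* (1.46, adjusted p = 0.002) passed the test between regions in both settings, and *Asb15* (1.32, adjusted p = 0.000306) the test between ages. Values of *Lin28b* on disomic replicates 2 and 3, and of *Hmgb2* on disomic replicate 3, also lay below their array medians. *Adamts12*, called only without disomic replicate 3, was the 1 probe set lower in both tests in that setting (-1.04, adjusted p = 0.0159 between regions; -1.16, adjusted p = 0.00105 between ages). Its values on Ts1Cje replicates 2 and 3 were not shown to be above background. *Brwd1*, *Tmem50b* and *Vps26c* passed neither test.

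**Figure D5:**
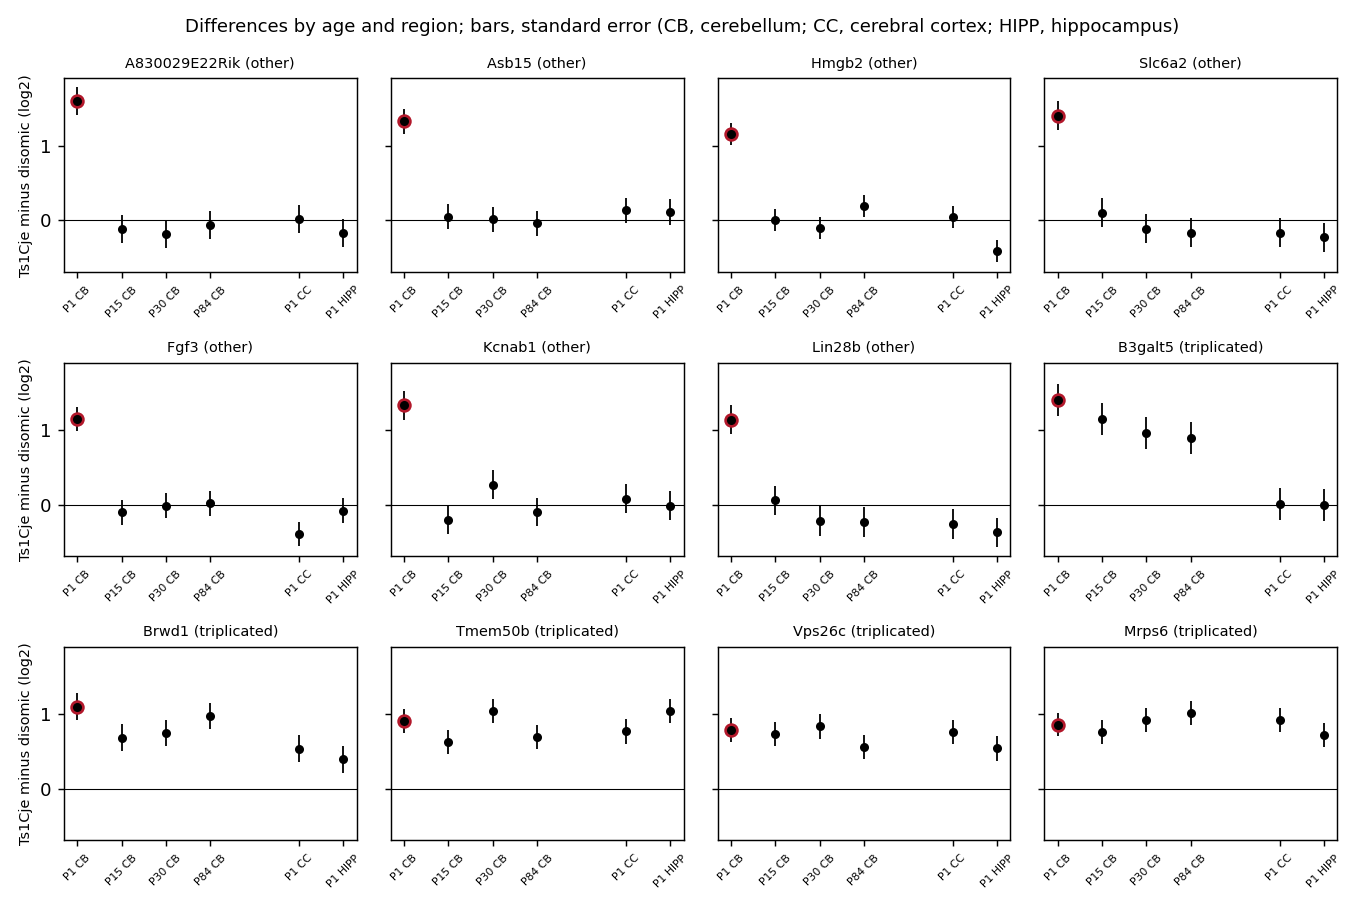
Each panel shows 1 probe set called in the P1 cerebellum in both settings, with the log2 difference, Ts1Cje minus disomic, on the y axis and its standard error from limma as a bar (n = 3 mice per genotype), for the cerebellum (CB) at P1, P15, P30 and P84 and for the P1 cerebral cortex (CC) and hippocampus (HIPP) on the x axis; the P1 cerebellum, which chose the probe sets, is ringed in red. The 7 genes outside both segments lie near 0 in the other 5 comparisons, between -0.41 and 0.27, whereas *Brwd1*, *Tmem50b*, *Vps26c* and *Mrps6* lie above 0 in all 6 and *B3galt5* in the 4 of the cerebellum and near 0 in the cortex and hippocampus. The P15 points include a disomic array that lay at the hippocampal end of the cerebellum to hippocampus axis.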

How the data were processed

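The values were the series table of log2 expression values that the authors made with gcRMA, which subtracts background by probe sequence, quantile-normalizes and summarises probe sets. The submitters' processing notes name GCRMA without a version. RNA had been labelled by the two-cycle protocol. Scanner files were not used here, so detection calls were not analysed and levels under the array medians were read as not shown to be above background.

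All 72 arrays were fitted in limma 3.58.1 (R 4.3.3) with 24 group means (48 residual degrees of freedom), and calls needed a moderated t of 4 or more in size together with a p of 0.05 or less after Benjamini-Hochberg adjustment across 45101 probe sets. No low-value filter was applied, and no term for the mouse was fitted. Contrasts were Ts1Cje minus disomic in the P1 cerebellum, and that effect minus the mean effect of the other P1 regions or of the later cerebella. The fit was tested on simulated data. Genes were named through GEO's platform annotation: 34958 probe sets had 1 symbol, 932 several and 9211 none, and 34754 were matched to RefSeq gene records by gene identifier. Unless another probe set is stated, a gene stands for its brightest probe set by mean over the arrays (18194 genes); genes called at another probe set are given at the one with the largest t. Members and gene lists were chosen with earlier results of these data known.

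Genes were named by this rule: called genes of both segments; outside them called genes ranking in the top 15 or bottom 15 by t; genes called also without disomic replicate 3; called list members or, for a list with none called, its 3 members with the highest mean; and genes called in either test of a difference of effects. Other genes were named after their values were seen, as said beside them. Alternatives were leaving out each array, a replicate block, fewer arrays in the fit, quantile normalization, a filter at a mean of 5, another prior, no bar on t, array weights and leaving out both replicates 3.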

Additional observations from a re-analysis of the deposited data

Results flagged for a closer look

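The effect of genotype in the P1 cerebellum differed from its effect elsewhere at 9 tests of 6 probe sets outside both segments that passed the criteria in limma with and without disomic replicate 3, all with a larger Ts1Cje minus disomic difference in the P1 cerebellum. Against the mean effect in the P1 cerebral cortex and hippocampus the difference of effects was 1.67 for *A830029E22Rik* (adjusted p = 4.64e-05, and 0.00207 without disomic replicate 3), 1.60 for *Slc6a2* (0.000126, and 8.58e-06), 1.46 for *Lin28b* (0.002, and 0.0159), 1.39 for *Fgf3* (0.000126, and 0.00765) and 1.34 for *Hmgb2* (4.64e-05, and 0.0017). Against the mean effect in the P15, P30 and P84 cerebellum it was 1.72 for *A830029E22Rik* (adjusted p = 8.69e-06, and 0.000475 without disomic replicate 3), 1.46 for *Slc6a2* (0.000306, and 1.82e-05), 1.32 for *Asb15* (0.000306, and 0.0156) and 1.12 for *Hmgb2* (0.000306, and 0.0156). The disomic values of *Slc6a2* on all 3 P1 cerebellum arrays, and of *A830029E22Rik* on 2 of them, lay below the array medians and were not shown to be above background. The same held for *Lin28b* on disomic replicates 2 and 3 and for *Hmgb2* on disomic replicate 3. In fits of the 18 P1 arrays and of the 24 cerebellum arrays alone limma called 0 probe sets in these tests, with 1796 and 3717 at an unadjusted p under 0.05. In groups of 3 no single array was tested for standing apart.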

How the results depend on the processing

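None of the 64 named results changed direction under an alternative that gave it a value, but medians of gene lists near 0 changed sign without disomic replicate 3, such as hedgehog response (-0.16 in place of 0.05), granule cell precursors (-0.09 in place of 0.10) and mitosis (-0.13 in place of 0.01). Leaving out each P1 cerebellum array in turn gave 22 to 1593 probe sets called in place of 223, 6 to 519 in place of 14 between regions, 5 to 877 in place of 24 between ages and 5 to 30 triplicated genes in place of 26, with triplicated medians of 0.71 to 1.00 in place of 0.88. The counts between Ts1Cje and disomic mice were 84 without Ts1Cje replicate 3 and 745, 1593 and 22 without disomic replicates 1, 2 and 3. Between regions they were 238, 519 and 6 without the same disomic replicates, and between ages 413, 877 and 5, with 37 and 66 without Ts1Cje replicates 1 and 2. Without disomic replicate 3 the triplicated genes called were 5, and of 64 named results 13 still passed, against 35 to 60 without another array. With only the cerebellum arrays 9 probe sets, 3 triplicated genes and 0 between ages were called, with only the P1 arrays 1, 0 and 0 between regions, and with only the 6 arrays 1 and 0. A filter at a mean of 5 gave 96, 5 between regions and 15 between ages, quantile normalization 60 between ages, and no bar on t 363. Without the mean filter the triplicated median was 0.53. Chosen after seeing the data, leaving out both replicates 3 gave 14 probe sets, 4 between regions, 3 between ages and 2 triplicated genes, and array weights gave 1606, with the Ts1Cje arrays weighted 1.29, 0.916 and 0.702 and the disomic arrays 7.17, 0.433 and 0.0755, so that the disomic side rested mostly on replicate 1. Without a P15 disomic array that lay at the hippocampal end of the cerebellum to hippocampus axis 32 were called between ages. The causes were not tested, beyond fewer arrays or probe sets in the fit. Whether replicate numbers pair the mice could not be told from 3 arrays a group. Same-number correlations were 0.36, -0.12 and 0.21, and those between different numbers ran from -0.33 to 0.09. With the replicate block 314 probe sets, 15 between regions, 45 between ages, 28 triplicated genes and 1 monosomic gene were called, with a triplicated median of 0.88. *Dnah11* was called in every setting. With 3 arrays a group, and 1 of them dim, precision is limited, and genes under a mean of 5 are the least certain.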

Other observations

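Among list genes picked after their values were seen, *Hoxa5*, a gene of the hindbrain and spinal cord, had 4.85, 4.84 and 4.89 in Ts1Cje mice and 4.66, 3.99 and 8.44 in disomic mice, and *Slc4a1*, the anion exchanger of red cells, had 2.57, 2.76 and 3.19 in Ts1Cje mice and 2.70, 2.72 and 5.07 in disomic mice, disomic replicate 3 being the highest array for both. Among 12 brainstem Hox genes the median difference was -0.20, and 0.11 without disomic replicate 3, with none called in limma and 0 higher and 2 lower at an unadjusted p under 0.05, a threshold that 10.6% of all genes passed upwards and 8.68% downwards. Among 8 blood genes the median difference was -0.24, and 0.02 without disomic replicate 3, with none called and 0 higher and 2 lower at an unadjusted p under 0.05. Only 1 of the 12 Hox genes and 0 of the 8 blood genes had a mean of at least 5. Over all probe sets at levels under 3, disomic replicate 3 was higher than the mean of disomic replicates 1 and 2 by a median of 0.41. The source of these list values was not tested. The 46 respiratory chain genes had a median of 0.11 (0.10 without disomic replicate 3), 40 of them above 0 (33), and none was called or reached an unadjusted p under 0.05 in either direction.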
